A study of Mus musculus with 16 samples.

Results

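The regions described here are stretches of open chromatin in mouse myoblasts that were among the strongest ATAC-seq peaks while the cells proliferated and were rarely so after 24 h of differentiation, with or without extra MyoD1. They were chosen by measured values. The 14710 strongest peaks of each of 14 libraries, ranked by the deposited −log10 p, were merged into 26213 union regions, and a region was kept when at least 6 of the 8 growth medium libraries and at most 1 of the 6 differentiation medium libraries held it. This gave 558 regions, 2.13% of the union. The fall from growth to differentiation medium was therefore fixed by the choice and is described here without a test.

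ATAC-seq uses a transposase to cut and tag accessible DNA, and a peak marks a site where cuts pile up over the local background. All libraries came from C2C12 iMyoD1, a polyclonal population of the C2C12 mouse myoblast line with a PiggyBac-integrated V5-Halo-MyoD1 transgene, driven by a doxycycline-responsive promoter, beside the endogenous Myod1 gene. The vehicle groups carry the same transgene. The transgene was induced with doxycycline (+dox) or left alone with vehicle (no dox) for 24 h, during which cells stayed in high-serum growth medium (GM) or moved to low-serum differentiation medium (DM). Each of the 4 groups had 4 libraries. Cells for GM were plated at 75000 per well and those for DM at 300000, so medium, serum and cell density cannot be told apart in any GM to DM difference. Replicate 1 of both DM groups was left out, as the study's methods did, which leaves 3 libraries in each DM group.

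Serum withdrawal drives myoblasts out of the cell cycle and into the muscle program, in which MyoD1 binds the E-box CAGCTG and other myogenic factors join it. Genes of the growing state are often controlled by distal enhancers that bind AP-1, the dimer of FOS and JUN proteins that responds to serum, together with factors such as RUNX and TEAD proteins. AP-1 binds TGACTCA, RUNX factors bind the core TGTGGT, and TEAD factors bind the M-CAT element CATTCC. Enhancers lie far from start sites and change between cell states more often than promoters do.

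The sequences around the summits of 8 of these regions are shown because they carry the motif kinds counted below. The first 4 are the regions strongest in GM, and the others lie nearest to Has2, Sox9, Runx1 and Cdh15. Each is the plus strand of GRCm38.p6, the assembly behind mm10, 201 bases centered on the summit. Capitals mark the AP-1, RUNX and MyoD1 letters given above on either strand, so that a motif on the minus strand reads as its reverse complement.
Trabd2b: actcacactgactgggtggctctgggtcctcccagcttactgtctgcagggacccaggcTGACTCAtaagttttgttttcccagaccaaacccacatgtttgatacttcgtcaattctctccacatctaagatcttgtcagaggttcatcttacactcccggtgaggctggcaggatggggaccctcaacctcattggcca
Slc9a4: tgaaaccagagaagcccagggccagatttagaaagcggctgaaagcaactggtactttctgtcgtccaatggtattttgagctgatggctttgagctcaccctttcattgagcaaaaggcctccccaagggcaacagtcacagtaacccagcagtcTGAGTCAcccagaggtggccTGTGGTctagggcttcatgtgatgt
Ptprm: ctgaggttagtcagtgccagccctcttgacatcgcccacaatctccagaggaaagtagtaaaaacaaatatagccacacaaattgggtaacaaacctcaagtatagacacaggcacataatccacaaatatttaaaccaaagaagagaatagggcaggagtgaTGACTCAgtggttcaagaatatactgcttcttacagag
1700012B07Rik: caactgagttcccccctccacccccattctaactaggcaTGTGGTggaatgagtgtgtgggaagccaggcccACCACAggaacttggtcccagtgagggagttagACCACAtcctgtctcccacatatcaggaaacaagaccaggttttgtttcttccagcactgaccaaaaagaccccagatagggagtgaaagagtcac
Has2: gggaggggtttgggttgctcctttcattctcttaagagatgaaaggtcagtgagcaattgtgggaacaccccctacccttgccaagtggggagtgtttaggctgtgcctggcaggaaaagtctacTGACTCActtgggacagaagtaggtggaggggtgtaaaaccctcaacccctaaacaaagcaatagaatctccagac
Sox9: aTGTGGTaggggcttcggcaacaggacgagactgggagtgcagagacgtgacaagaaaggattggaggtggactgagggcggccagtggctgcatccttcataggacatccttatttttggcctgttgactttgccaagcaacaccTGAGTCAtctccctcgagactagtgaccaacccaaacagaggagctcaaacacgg
Runx1: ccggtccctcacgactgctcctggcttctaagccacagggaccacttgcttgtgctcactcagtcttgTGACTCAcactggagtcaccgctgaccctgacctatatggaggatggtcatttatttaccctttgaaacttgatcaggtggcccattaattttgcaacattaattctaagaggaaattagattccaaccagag
Cdh15: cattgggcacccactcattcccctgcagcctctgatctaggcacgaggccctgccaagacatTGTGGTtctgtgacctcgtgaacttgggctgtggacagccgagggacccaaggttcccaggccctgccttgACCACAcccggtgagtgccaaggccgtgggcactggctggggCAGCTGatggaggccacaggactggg
These windows lie at chr4:114321930-114322130, chr1:40586882-40587082, chr17:67150533-67150733, chr11:109795675-109795875, chr15:56765327-56765527, chr11:112758126-112758326, chr16:92979749-92979949 and chr8:122851771-122851971, in that order. AP-1 was present once in 6 of the 8 windows, and RUNX was present in 4, with 3 copies near 1700012B07Rik. CAGCTG was present only in the window near Cdh15.

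The regions weakened in DM but did not close to the level of having no peak. Among all deposited peaks, every region still had a peak in at least 1 of the 6 DM libraries, 240 had one in all 6, and 514 (92.1%) had one in all 3 DM +dox libraries. The corresponding number for the 3 DM no dox libraries was 247 (44.3%), and 21 (3.76%) had no peak in any of them. Loss here is thus a fall in rank and strength among peaks. All 558 had a deposited peak in at least 6 GM libraries by the rule, and 448 had one in all 8.

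The change in rank was wide. Over the regions with a deposited peak in a library, the median rank was counted from the strongest peak. It lay between 6810 and 13263.5 in the 8 GM libraries and between 16468 and 24134.5 in the 6 DM libraries. In the order of replicates 1 to 4, 81.9%, 93.9%, 87.5% and 75.8% of the regions were among the strongest peaks of GM no dox, and 92.3%, 95.7%, 79.9% and 63.1% among those of GM +dox. In replicates 2 to 4 the share was 16.7%, 7.71% and 3.58% for DM no dox and 23.5%, 2.15% and 2.87% for DM +dox. Within DM, replicate 2 of each dox group held the largest share.

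Peak strength was expressed as relative strength, the deposited fold enrichment divided by the library's median fold enrichment at the 6068 regions present in every list. On the log2 scale, the median relative strength of the regions was -0.18, -0.26, -0.45 and -0.35 in GM no dox and -0.21, -0.21, -0.38 and -0.53 in GM +dox. It was -0.82, -0.99 and -0.90 in DM no dox and -0.69, -0.92 and -0.91 in DM +dox. The GM and DM libraries did not overlap in this median. For comparison, 9571 retained regions (at least 6 GM and at least 5 DM libraries) had medians between -0.11 and -0.04 in the 14 libraries.

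**Figure D1:**
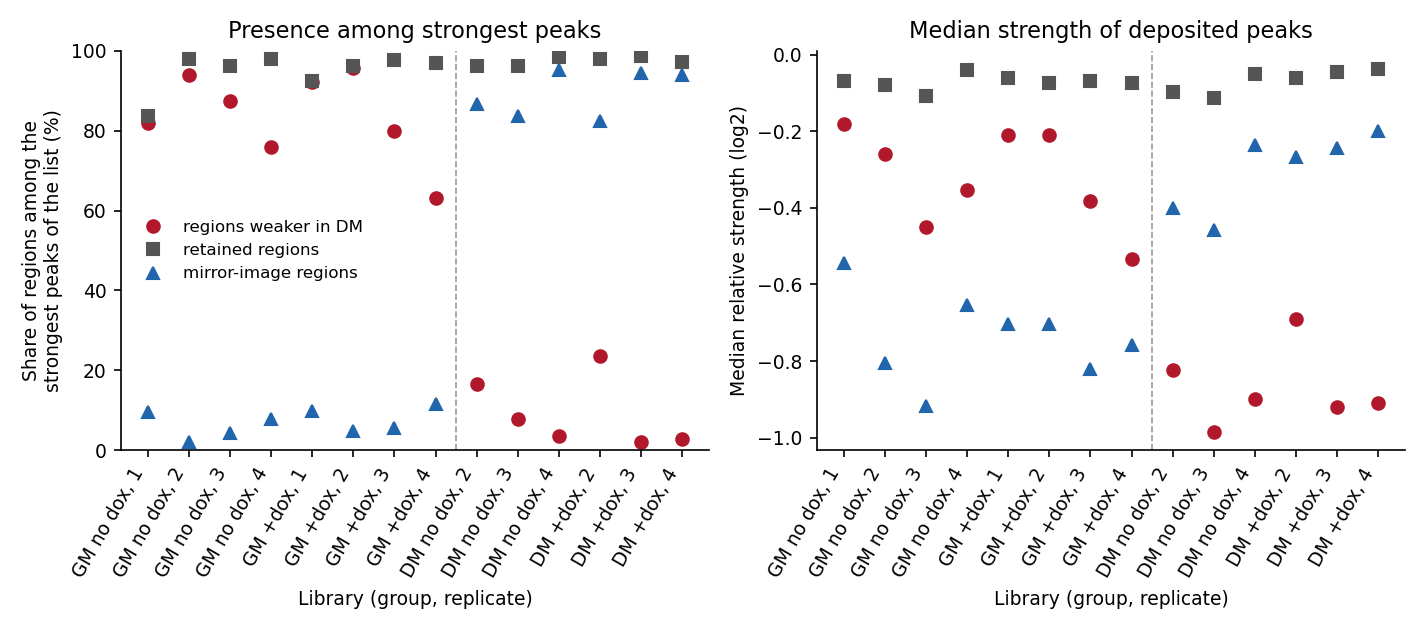
Each point is 1 library, by group and replicate, for the 558 regions weaker in DM (circles), the 9571 retained regions (squares) and the 232 mirror-image regions with at most 1 GM and at least 5 DM libraries (triangles). The left axis gives the share of regions among the 14710 strongest peaks of the list (%), and the right axis the median relative strength of deposited peaks (log2), where the circles fall from between -0.53 and -0.18 in GM to between -0.99 and -0.69 in DM.

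The values just inside and just outside the rule lay close together. The 162 regions with 6 GM and 1 DM library, inside it, had a median DM minus GM difference of -0.37 on the log2 scale in the 79 with a deposited peak in all 14 libraries. The 195 regions with 5 GM and 1 DM library, outside it, had -0.31 in 68, and the 158 regions with 6 GM and 2 DM libraries, also outside, had -0.26 in 87. At the far end, the 49 regions with all 8 GM libraries and no DM library had -0.70 in 19. Of the 558, 284 were held by 6 GM libraries, 157 by 7 and 117 by 8, and 243 were held by no DM library.

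Membership depended on the number of peaks kept. With 7355 peaks per list the same rule kept 312 regions, which overlapped 24 (4.30%) of the 558. With all deposited peaks it kept 568, which overlapped 4 (0.717%). The rule thus takes the regions whose rank crosses the chosen list length, and ranking by fold enrichment kept 226 (40.5%) of them.

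Depth limits single values. Solved from fold enrichment and p, the median fragment pileup at the summits of the regions was 14 to 70 in the GM libraries and 10 to 47 in the DM libraries, and the genome-wide background was 0.339 to 1.13 fragments per base in the 14 libraries. GM no dox replicate 1 had the shortest list, 14710 peaks, against 23078 to 58587 in the other GM libraries. Of 8 muscle marker genes, 2 (Myod1 and Chrna1) had a promoter peak in all 14 libraries and 0 had none, whereas 12 of 14 markers of blood, endothelium, epithelium, nerve and liver had none; Pecam1 had one in 8 libraries and Tek in 1.

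Position set these regions apart from the bulk of open chromatin. Of the 558, 67 (12.0%, exact 95% binomial interval 9.43% to 15.0%) had their summit no more than 1 kb from a transcription start site, against 36.7% of all union regions, 55.8% of retained regions and 21.1% of the 232 mirror-image regions. Coding genes accounted for 45 of the 67. No test was made of these shares, because the regions of a list are not replicates. Retained regions were also stronger in GM, and the part of strength in the share was not tested.

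The other 491 regions were distal, 270 in introns, 201 between genes and 20 in exons outside start sites. Their place among distal regions was ordinary. The median distance to the nearest coding start site was 29.8 kb, against 29.9 kb for all 16597 distal union regions, and 55.0% were intronic, against 54.1%. The median GC content of the windows was 49.8%, against 50.2% in all distal and 52.2% in the 4232 retained distal regions. By chromosome, chromosome 11 held most (50 of 2099 regions) and chromosome 9 the largest share (2.96%, 40 regions), and X held 3 of 469 (0.640%).

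The MyoD1 E-box was scarce in the distal regions. CAGCTG occurred within 100 bp of the summit in 65 of 491 (13.2%), against 22.8% of all distal windows of the same length, 25.6% of retained and 38.3% of the 183 mirror-image distal regions. CAGGTG, an E-box that several factors bind, occurred in 15 (3.05%), against 8.73%, 7.44% and 14.8%. Any E-box of the form CANNTG, which includes both, occurred in 60.9%, against 71.6%, 72.0% and 84.7%. The regions thus held each of these E-boxes less often than the other sets did.

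AP-1 was common in the distal regions, at a share between those of the other sets. TGACTCA occurred in 218 of 491 (44.4%), against 42.2% of all distal, 49.0% of retained and 37.7% of mirror-image regions. M-CAT occurred in 120 (24.4%), against 21.8%, 23.7% and 16.4%. CAGACA, bound by SMAD proteins, occurred in 123 (25.1%), against 21.4%, 20.3% and 16.9%.

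RUNX motifs were more frequent than in the other sets, mainly in the regions held by no DM library. TGTGGT occurred in 196 of 491 (39.9%), against 31.7% of all distal, 32.8% of retained and 26.8% of mirror-image regions, and the longer TGTGGTT in 98 (20.0%), against 13.6%, 14.2% and 12.6%. By DM presence, TGTGGT occurred in 46.3% of the distal regions held by no DM library and 34.9% of those held by 1. Regions of at least 6 GM libraries held by 2 to 4 DM libraries, outside the rule, had 36.4% to 37.3%. AP-1 and RUNX occurred together in 77 (15.7%), against 12.0%, 15.1% and 9.29%. The MEF2 element occurred in 16 (3.26%), against 1.95%, 1.47% and 0.546%.

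Some other motifs were below the level of all distal regions or close to it. TTGGCA, part of the NF-I site, occurred in 70 (14.3%), against 19.9%, 21.2% and 31.7%. The CTCF core, which marks insulators, occurred in 2 (0.407%), against 1.84%, 1.32% and 0%. CCAAT (21.6% against 22.6% of all distal), the C/EBP element (8.96% against 9.07%), the STAT element (6.31% against 6.27%) and AGAACA, the glucocorticoid receptor site, (14.9% against 14.5%) lay within 1 percentage point of all distal regions.

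**Figure D2:**
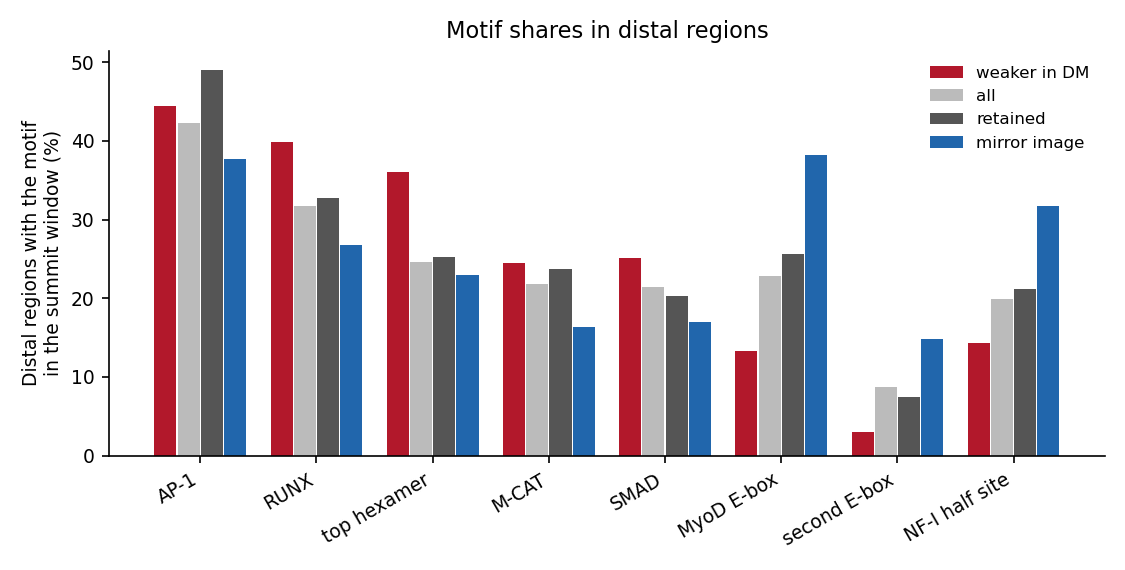
Bars give the share of distal regions (%) with each motif within 100 bp of the summit, on either strand, for the 491 regions weaker in DM, all 16597 distal regions, the 4232 retained and the 183 mirror-image regions. The MyoD E-box bar is 13.2% for the regions weaker in DM and 38.3% for the mirror-image regions, and the RUNX bars run the other way, at 39.9% and 26.8%.

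All 2080 hexamers were then compared between the regions and retained distal regions, as a ranking with no test. CAGCTG had the lowest difference of all, -12.4 percentage points. The highest was CCCACA, present in 36.0% of the regions and 25.2% of retained regions. CCACAA followed at 28.1% and 19.8%, and then the RUNX core, read as ACCACA on the other strand, at 39.9% and 32.8%. These 3 hexamers share the letters CCACA, and CCCACA had not been among the motifs searched. GTGGGAA, the core bound by the Notch effector RBPJ, was searched after this ranking was seen and occurred in 37 (7.54%), against 5.34% of all distal and 5.03% of retained regions.

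Base composition moved some of these shares. Within 3 bands of GC content, CAGCTG was lower in the regions than in retained regions in each band, at 8.24% and 14.1% in the lowest, 10.9% and 28.5% in the middle and 22.2% and 30.4% in the highest. RUNX was higher in the middle band (42.4% and 35.5%) and the highest (35.4% and 25.7%) but about equal in the lowest (41.2% and 40.8%). AP-1 was lower in the regions in each band, most in the lowest (44.5% and 55.8%).

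The share at start sites rose at each step with the number of DM libraries that held a region, and the motif shares did not. Among regions of at least 6 GM libraries, the share at start sites was 11.1% with no DM library, 12.7% with 1, 13.3% with 2, 18.4% with 3, 27.1% with 4, 40.1% with 5 and 58.6% with all 6. For distal CAGCTG the same steps were 13.9%, 12.7%, 10.9%, 15.2%, 17.0%, 22.2% and 26.5%, with the lowest at 2 DM libraries. RUNX was highest with no DM library, 46.3%, and lay between 30.4% and 37.3% at the other steps. AP-1 showed no order and lay between 42.9% and 50.1%. Median GM relative strength moved with these steps, from -0.29 with no DM library to -0.04 with all 6 on the log2 scale, and its part was not tested.

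**Figure D3:**
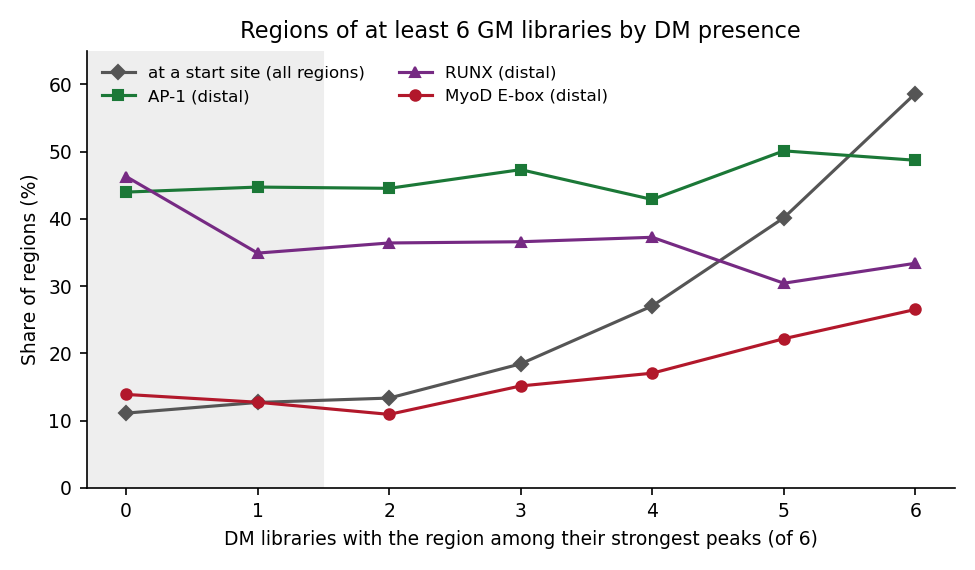
The horizontal axis gives the number of the 6 DM libraries that held a region, for regions of at least 6 GM libraries, with the regions weaker in DM shaded at 0 and 1. Lines give the share (%) at start sites over all regions and the shares with AP-1, RUNX and the MyoD E-box over distal regions. The E-box line is 13.9% at 0, lowest at 2 (10.9%) and 26.5% at 6. The RUNX line is 46.3% at 0, 34.9% at 1 and 33.4% at 6.

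Among the 315 regions held by 1 DM library, that library was DM no dox in 156 and DM +dox in 159. CAGCTG occurred in 9 of the 137 distal regions that kept a no dox library (6.57%) and in 26 of the 138 that kept a +dox library (18.8%). Replicate 2 supplied most of both classes, with 93 and 131 regions, and within it the counts were 4 of 82 (4.88%) and 23 of 116 (19.8%). In replicates 3 and 4 the classes held between 11 and 37 distal regions per library and the shares lay between 8.11% and 18.2%. For RUNX the shares were 38.0% with a no dox library and 31.9% with a +dox library, and in replicate 4 the order was the reverse, 5 of 18 (27.8%) and 7 of 11 (63.6%). No test was made of these shares, and each class rests on single libraries.

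The strongest of the regions in GM were mostly far from promoters, and the plot of relative strength by library shows the 12 strongest. The first lay between genes at chr4:114321673-114322379, 84.7 kb from Trabd2b, which encodes a protease that inactivates Wnt proteins. Its relative strength was 1.90, 1.23, 1.09 and 1.18 in GM no dox and 1.11, 1.29, 1.00 and 0.980 in GM +dox, and 0.712, 0.448 and 0.684 in DM no dox and 0.928, 0.508 and 0.431 in DM +dox. Every GM library lay above every DM library, with DM +dox replicate 2 nearest to the GM values.

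The second lay in an intron of Slc9a4, a sodium-proton exchanger, at chr1:40586755-40587213 and within 1 kb of a noncoding start site. Its relative strength was 1.10, 0.983, 1.14 and 1.18 in GM no dox and 1.26, 1.22, 1.01 and 1.04 in GM +dox, and 0.609, 0.797 and 0.709 in DM no dox and 0.758, 0.721 and 0.684 in DM +dox. The groups of the 2 media did not overlap here either.

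The third, in an intron of Ptprm (chr17:67150419-67150835), a receptor phosphatase at cell contacts, had 0.954, 1.15, 1.05 and 1.35 in GM no dox and 1.09, 1.39, 1.09 and 0.808 in GM +dox. In DM no dox it had no peak in replicate 2 and then 0.504 and 0.483, and in DM +dox 1.08, 0.689 and 0.406. DM +dox replicate 2 overlapped the GM values. The fourth, in an intron of 1700012B07Rik (chr11:109795505-109796128), had values between 0.887 and 1.29 in GM, no peak in DM no dox replicates 2 and 3 and 0.541 in replicate 4, and 0.768, 0.486 and 0.514 in DM +dox.

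The other 8 were nearest to Nedd9, a focal adhesion scaffold, Oaf, Ranbp6, the kinase A subunit gene Prkar1b, the mitochondrial import receptor gene Tomm20, the splicing factor gene Ptbp2, Aspa and Palm2. Their distances to the start site ran from 5.94 kb (Aspa) to 221 kb (Ptbp2). Of the 12, 7 held AP-1, 4 held RUNX and 0 held CAGCTG. With 12 regions these counts only describe the list.

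**Figure D4:**
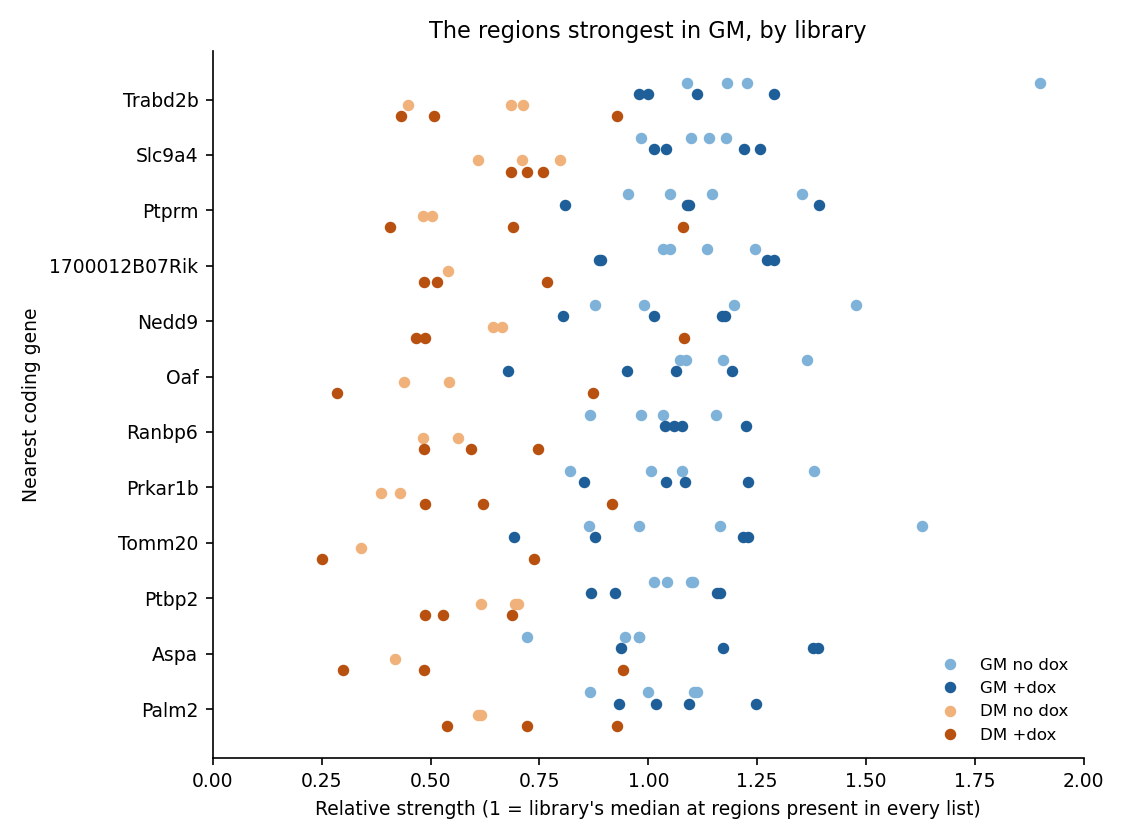
The 12 regions with the highest mean strength in GM are listed by nearest coding gene, with relative strength on the horizontal axis, and each point is 1 library colored by group. Points of both DM groups lie mainly left of the GM points, and DM +dox replicate 2 is often the closest to them, as at Ptprm with 1.08; a library with no deposited peak has no point.

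Regions were assigned to the nearest coding start site, and 523 of the 11916 genes so assigned had at least 1 of the 558. Over all genes the 558 were 2.13% of regions. This share is not matched for position, since start sites held 12.0% of the 558 and 36.7% of all union regions. Of the 16597 distal union regions, 491 were among the 558. The lists were not split by position, and its part in their shares was not tested. For the extracellular matrix the count was 8 of 31 genes and 8 of 197 regions (4.06%), and for cytoskeleton and focal adhesion 7 of 38 genes and 8 of 201 regions (3.98%). Myoblast and mesenchymal factors had 8 of 35 genes and 10 of 218 regions (4.59%), TGF-beta and BMP 5 of 24 genes and 6 of 163 regions (3.68%), and YAP and TEAD targets 3 of 15 genes and 4 of 72 regions (5.56%). No test was made of any list.

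The remaining lists were close to or below the share over all regions. Immediate early and AP-1 genes had 4 of 150 regions (2.67%), growth factors and receptors 3 of 108 (2.78%), muscle differentiation 1 of 42 (2.38%), cell cycle and growth 1 of 76 (1.32%), and Id and Notch genes 1 of 86 (1.16%). MAPK feedback and ETS genes had 0 of 98, and genes of other cell types 0 of 14.

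Among matrix genes, the region nearest to Has2, which makes hyaluronan, lay at chr15:56764868-56765635, 70.9 kb from its start and near the start of a noncoding transcript. Its relative strength was 1.37, 1.07, 0.985 and 0.928 in GM no dox and 1.23, 1.03, 0.830 and 0.874 in GM +dox, and 0.726, 0.596 and 0.672 in DM no dox and 0.699, 0.560 and 0.547 in DM +dox. The 2 media did not overlap. The region nearest to Thbs1, which encodes thrombospondin, had 0.809 to 0.946 in GM and 0.468 to 0.833 in DM, where DM +dox replicate 2 at 0.833 overlapped GM. The region nearest to Fn1, fibronectin, overlapped fully, with 0.593 to 1.15 in GM and 0.831 to 1.03 in the 4 DM libraries with a peak. The other matrix genes included Col1a2, Col5a1, Fbln2 and Fbn1.

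Among myoblast and mesenchymal factors, the region nearest to Sox9 (chr11:112758038-112758767, 24.0 kb from it) had 0.926, 1.08, 0.985 and 1.02 in GM no dox and 1.10, 1.09, 0.876 and 0.982 in GM +dox, and 0.597, 0.697 and 0.609 in DM no dox and 0.546, 0.466 and 0.379 in DM +dox. Sox9 encodes a factor of cartilage and progenitor cells. The media did not overlap. Within DM each +dox library lay below each no dox library, as in 6.25% of the 240 regions with a peak in all 6 DM libraries and 6.91% of all regions tested, and the dox difference was not called (limma adjusted p 0.445, and 0.0998 with the replicate block). The region nearest to Runx1 (chr16:92979525-92980287, 154 kb) had 0.786, 1.01, 0.570 and 0.948 in GM no dox and 0.824, 0.792, 0.817 and 1.01 in GM +dox. It had no peak in any of the 3 DM no dox libraries and 0.404, 0.585 and 0.530 in DM +dox. A region in an intron of Runx2 had 0.644 to 0.907 in GM, a peak in 1 DM no dox library (0.740), and 0.717, 0.450 and 0.271 in DM +dox.

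Cdh15 encodes M-cadherin, an adhesion protein of muscle precursors. Its region (chr8:122851575-122852238, an intron, 3.905 kb from the start) was weak throughout, with 0.595, 0.579, 0.468 and 0.517 in GM no dox and 0.564, 0.585, 0.513 and 0.507 in GM +dox. It had 0.424, 0.390 and 0.276 in DM no dox and 0.443, 0.309 and 0.337 in DM +dox, all below GM. Eya1, Foxc1, Foxp1 and Tcf4 were the other genes of the list.

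Among YAP and TEAD targets, Ccn2 had a region over its first exon and one 102 kb away, Ccn1 had one 3.45 kb away, and Amotl1 had one in an intron. The Ccn2 start region (chr10:24595308-24596040) had 0.978, 1.05, 0.638 and 0.641 in GM no dox and 0.841, 1.05, 0.775 and 0.579 in GM +dox, and 0.545, 0.478 and 0.586 in DM no dox and 0.873, 0.461 and 0.627 in DM +dox. Ccn2 encodes a matricellular growth factor, and the libraries of the 2 media overlapped here. The Ccn1 region overlapped too, with 0.328 to 0.597 in GM and 0.275 to 0.384 in DM.

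TGF-beta genes were Tgfb3, a ligand, Ltbp1, which holds latent ligand in the matrix, the inhibitory factors Smad6 and Smad7, and Tgif1. The Tgfb3 region (chr12:86014758-86015586, 63.7 kb away in an intron of Ttll5) had 0.703 to 1.15 in GM, and 0.473 and 0.695 in the 2 DM no dox libraries with a peak and 0.851, 0.529 and 0.578 in DM +dox. The Ltbp1 region had 0.616 to 1.36 in GM and 0.490 to 0.655 in DM. Both overlapped. Cytoskeleton genes were Cald1, Cd44, Itgb1, Lpp with 2 regions, Myh9, Nedd9 and Tes.

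Immediate early genes were Ier2, Junb, Klf6 and Myc. The region assigned to Myc lay 376 kb from its start and had 0.707 to 1.10 in GM and 0.457 to 0.767 in the 5 DM libraries with a peak. Growth factor genes included Cxcl12 and Egfr, and the Egfr region, 16.7 kb from its start, had 0.673 to 1.03 in GM and 0.583 to 0.731 in DM, with overlap between the media. Id1, an inhibitor of MyoD1's E-protein partners, had a region 1.09 kb upstream, E2f2 one 7.22 kb upstream, and Neb, which encodes the sarcomere protein nebulin, one in an intron.

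Most of the regions stood alone. With neighbors within 100 kb joined, 470 were single, 35 were pairs and 6 were runs of 3. The tightest run held 3 regions in 44.9 kb within Ppargc1b, a coactivator of mitochondrial genes, and no other union region lay between them. A second spanned 51.7 kb by Sema7a and Cyp11a1 (chr9:57938188-57989857) and held 3 of 5 union regions. Another spanned 63.1 kb by Gm17334 and Gm12216 (chr11:53796748-53859834) and held 3 of 4.

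The dox arms were compared next, to ask in which arm the regions were weaker. The rule treats both arms alike, so a dox contrast is not its contrast. It still limits the dox differences that these regions can show. A region among the strongest peaks of more than 1 DM library was left out, even if all were +dox libraries. Regions held by GM libraries of the same arm only were left out too. The part of this limit in the dox and interaction results below was not tested. In addition, a region needs peaks in every library of a fit to be tested. In GM, limma on log2 fold enrichment, median centered per library, tested 12492 regions and called 0 at an adjusted p under 0.05 (0%), with 622 (4.98%) under an unadjusted 0.05. Of the 448 regions weaker in DM that were tested, 0 were called and 32 (7.14%) had an unadjusted p under 0.05. Their median +dox minus no dox difference was -0.05 on the log2 scale, against -0.02 over all regions tested. By number, it was -0.04 within replicates 1 and 2 and -0.05 within replicates 3 and 4.

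The presence counts in GM changed order with the replicate numbers. In replicates 1 and 2 a mean of 87.9% of the regions was held in GM no dox and 94.0% in GM +dox, and in replicates 3 and 4 81.6% and 71.5%. GM +dox replicate 4 held the smallest share, 63.1%. More GM no dox than GM +dox libraries held 159 of the regions, and fewer held 123.

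In DM, the same test called 0 of 17251 regions (0%), with 1752 (10.2%) under an unadjusted 0.05. Of the 240 regions with a peak in all 6 DM libraries, 0 were called and 21 (8.75%) were under it, and the median difference was -0.02, against -0.04 over all. This median was 0.03 after quantile normalization, -0.19 on log2 of −log10 p, 0.01 within replicate 2 and -0.05 within replicates 3 and 4. The 240 leave out regions that lacked a peak in a DM no dox library. With absent peaks set to the lowest value, the median over all 558 was 0.14, 343 were higher and 215 lower with dox, and limma called 0, with 55 (9.86%) under an unadjusted 0.05 against 11.4% of all 26213 regions. The direction in DM thus depended on how absent peaks were treated. The DM no dox lists held 23690 to 40599 peaks and the DM +dox lists 46241 to 51340, and the part of list length was not tested. Same-numbered libraries deviated from their group means together. With the replicate number as a block, limma called 0 in GM, with 1050 regions (8.41%) and 60 of the 448 under an unadjusted 0.05, and 537 of 17251 in DM (3.11%), 201 higher (1.17%) and 336 lower (1.95%) with dox. Of the 240, 10 (4.17%) were called, 3 higher and 7 lower, a share near that over all regions. At an unadjusted 0.05 the block fit in DM held 39 of the 240 and 18.1% of all regions.

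The 3 that were higher with dox in DM lay near Dnajb6, Hmgb1 and Ppargc1b. Near Dnajb6, which encodes a co-chaperone (chr5:29842480-29843185, 107 kb), relative strength was 0.501, 0.427 and 0.574 in DM no dox and 0.916, 0.767 and 0.914 in DM +dox, against 0.718 to 1.07 in GM no dox and 0.582 to 0.965 in GM +dox. The log2 difference in DM was 0.73 ± 0.18 (SE), with an adjusted p of 0.00683 by limma with the replicate block and 0.270 without it. In this region DM +dox lay within the range of GM and DM no dox below it.

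Near Hmgb1, a chromatin protein gene (chr5:149078826-149079432, 26.1 kb), the values were 0.462, 0.471 and 0.509 in DM no dox and 1.06, 0.725 and 0.814 in DM +dox, and the log2 difference was 0.76 ± 0.18 (limma adjusted p 0.00447 with the block, 0.266 without). In GM it had no peak in no dox replicate 1 and 0.670 to 0.831 in the other 3, and 0.817 to 1.19 in GM +dox. The region within Ppargc1b, 1 of the run above, had 0.438, 0.345 and 0.509 in DM no dox and 0.746, 0.602 and 1.05 in DM +dox, a difference of 0.81 ± 0.19 (limma adjusted p 0.00408 with the block, 0.291 without). Of the 10 called regions, CAGCTG was present in this one and in the one near Prrc1, which was lower with dox. One neighbor in the run was tested and not called, and the other had no peak in DM no dox replicate 3 and was not tested.

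The 7 that were lower with dox in DM lay near Sema3a, Arhgap8, Prrc1, Crocc2, Aqp1, Ccn4 and Schip1. Near Sema3a, a guidance factor gene (chr5:13364902-13365616, 31.5 kb), relative strength was 1.02, 0.616 and 0.580 in DM no dox and 0.653, 0.324 and 0.352 in DM +dox. The log2 difference was -0.83 ± 0.19, with a limma adjusted p of 0.00349 with the block and 0.374 without. The arms overlapped here across numbers, since no dox replicates 3 and 4 lay below +dox replicate 2, but each +dox library lay below the no dox library of its number.

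Near Arhgap8, which encodes a GTPase-activating protein (chr15:84712548-84713103), the values were 0.434, 0.588 and 0.474 in DM no dox and 0.381, 0.224 and 0.309 in DM +dox (log2 difference -0.80 ± 0.21, limma adjusted p 0.0137 with the block, 0.365 without). The start region of Ccn4 (chr15:66890908-66891614), a matricellular gene of the family of Ccn1 and Ccn2, had 0.297, 0.554 and 0.297 in DM no dox and 0.270, 0.202 and 0.220 in DM +dox, with a difference of -0.74 ± 0.21 (limma adjusted p 0.0281 with the block, 0.401 without). In both, every +dox library was below every no dox library. The region in Aqp1, a water channel gene, had 0.576, 0.362 and 0.422 in DM no dox and 0.275, 0.259 and 0.291 in DM +dox.

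**Figure D5:**
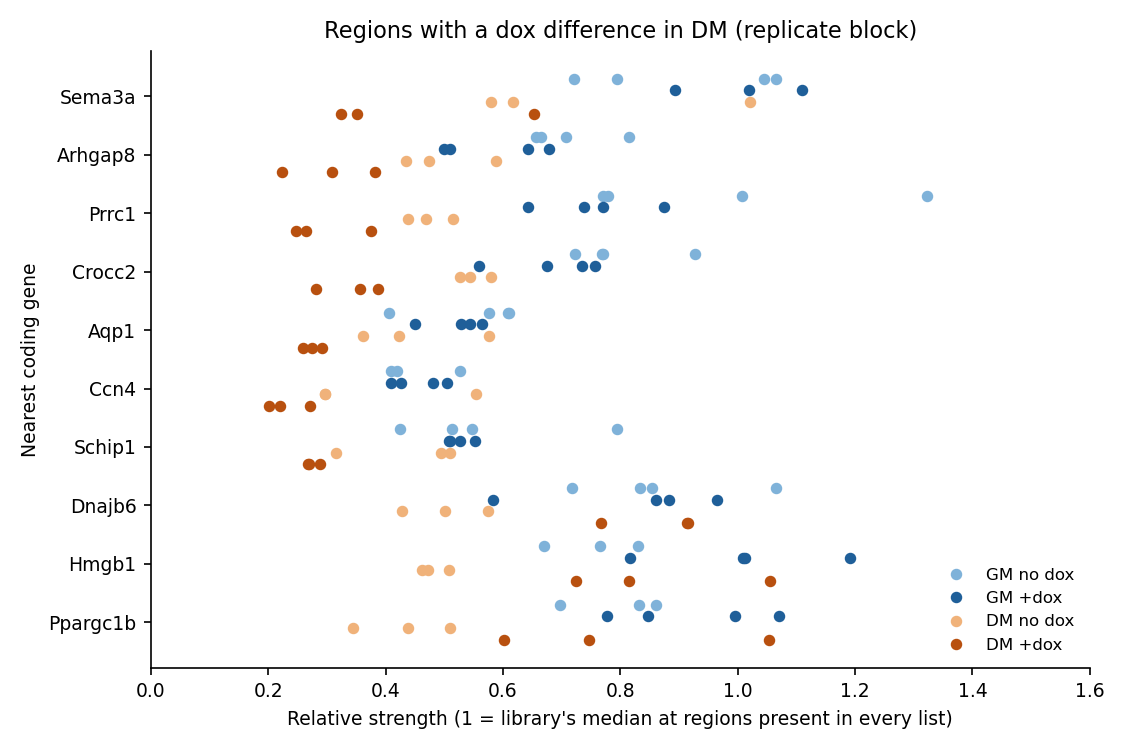
The 10 regions with a dox difference in DM under the replicate block are listed by nearest coding gene, with relative strength on the horizontal axis, and each point is 1 library colored by group. The DM +dox points lie right of the DM no dox points at Dnajb6, Hmgb1 and Ppargc1b and mainly left of them at the other 7, while the 2 GM groups overlap.

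These 10 calls depended on the 3 pairs in unequal measure. Without both libraries of number 2 the block fit called 1 of them, without number 3 it called 3 and without number 4 it called 8. The sign of the difference was the same for all 10 in each. The 10 were chosen by the full fit and each refit reused libraries of that fit, so nothing is read from the shared sign.

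Whether the fall itself differed between the arms was tested as an interaction of dox and medium. Limma tested 11011 regions and called 0 (0%), with 283 (2.57%) under an unadjusted 0.05, and of 222 regions weaker in DM it called 0, with 7 (3.15%) under it. With the replicate block it called 0 again, with 18 of the 222 and 574 of all regions (5.21%) under it. The median interaction was 0.06 on the log2 scale, against -0.02 over all regions tested, and 134 of the 222 were above 0. The median was not stable in sign. Omitting GM no dox replicate 1 gave -0.01, omitting GM +dox replicate 4 gave -0.0029 and omitting DM +dox replicate 2 gave -0.0056. It was -0.04 over the 3 members in the upper range of mean fold enrichment and -0.10 when log2 of −log10 p replaced log2 fold enrichment. With absent peaks set to the lowest value, the median interaction was 0.23 over all 558, with 409 of them above 0. Limma called 0, with 51 (9.14%) under an unadjusted 0.05 against 2.73% of all regions. In this setting the median dox difference was -0.13 in GM, with 372 of the 558 lower and 186 higher with dox, and 0.14 in DM. Both media thus entered this interaction, and the part of absent peaks in it was not tested. As a description, the median DM minus GM difference was -0.54 in the no dox arm over 231 regions with a peak in all 7 libraries and -0.48 in the +dox arm over 512. In these, 120 (51.9%) and 213 (41.6%) had every DM library below every GM library, against 6.34% and 7.11% of all regions. The rule used this contrast, so nothing is read from these shares, and the sets of regions behind the 2 arms differ because fewer had a peak in every DM no dox library.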

How the data were processed

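ATAC-seq was performed on 16 libraries, 4 per group, and 1 narrow peak list per library was deposited. Per the study's methods, the authors ran nf-core/atacseq on mm10, removed blacklisted sites and called peaks with MACS2 in each library. Each deposited peak has a score, a ratio (its fold enrichment at the summit against the surrounding signal), and p and q as −log10. Peak lists carry no reads per region, which leaves count models out, and intervals cover counting error only. Regions were merged from equally long lists when they shared at least 1 base. A region's value in a library was the highest fold enrichment among all deposited peaks that overlap it. The nearest coding start site came from GENCODE M21, and motifs were searched on both strands within 100 bp of the summit in GRCm38.p6.

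Dox differences and the interaction were fitted with limma 3.58.1 (R 4.3.3; lmFit, eBayes with trend) over all union regions with a deposited peak in every library of the fit, two-sided, with Benjamini-Hochberg adjustment. The fits without the block were checked on simulated data. Of 100 regions given a log2 change of 1, 94% were recovered in GM, 68% in DM and 67% for the interaction. Smaller changes were not simulated, so 0 calls do not show that the arms were alike. Same-numbered libraries were taken as pairs within a medium because every correlation of their deviations from the group means exceeded 0.1, with r of 0.165 to 0.276 for the 4 GM pairs and 0.189 to 0.365 for the 3 DM pairs. Of all 19 same-numbered pairs, within and across media, 1 fell below it (0.0967). The median r was 0.204 for same-numbered and -0.119 for other pairs. Some differently numbered GM pairs also exceeded 0.1, GM no dox replicate 3 with GM +dox replicate 4 (0.208) and GM no dox replicate 1 with GM +dox replicate 2 (0.128). The number is thus not the only grouping with r above 0.1. In the interaction fit the block spanned both media. The labels call the libraries biological replicates. Without the block, p-values measure the spread between libraries of a group. With it, they measure the spread left after the replicate numbers are fitted. Named regions were the 12 strongest in GM, up to 3 per gene list, up to 3 per direction called for dox in GM (there were 0) and the 3 runs with most members. Cdh15 and the regions called in DM with the block were added after their values were seen. A few genes and motifs are not reported here. The regions, motifs and gene lists were chosen with earlier results of these data known. Python 3.11.15, pandas 2.3.3 and pysam 0.24.0 were used for the rest.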

Additional observations from a re-analysis of the deposited data

Results flagged for a closer look

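In 66 groups of 4 GM libraries, over 2 summary measures and the relative strengths of the named regions, 4 held a library that stood apart from the other 3 by Dixon's ratio, and chance gives about 1 in 20. In GM no dox, the region in Aspa had 0.721 in replicate 3 against 0.948 to 0.979 in the others. In the same group the second Gm17334 region had 0.476 and the Aqp1 region 0.405 in replicate 4, the lowest in each. In GM +dox, the region near Runx1 had 1.01 in replicate 4, the highest. None of the 4 regions was called for dox in GM.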

How the results depend on the processing

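The number of regions was 312 with 7355 peaks per list and 49 with a peak in all 8 GM and no DM library. It ranged from 614 to 814 when 1 of the 14 libraries was left out. There the GM minimum was lowered by 1 for an omitted GM library, and the DM maximum stayed at 1. All 558 were thus kept each time and regions could only be added, so these omissions and the shares under them do not check membership. With all 16 libraries 440 were kept, all among the 558. Here both DM replicate 1 libraries were added under the same DM maximum of 1. Regions could thus be removed but hardly added, so that all lay among the 558 is no check. Joining only peaks that overlap by 50 bp kept all 558. The share at start sites (12.0%) was 6.51% with all deposited peaks, where all regions had 19.2%, and 8.16% under the stricter rule, with 10.1% to 14.8% when a library was left out. Over all members, promoters included, the AP-1 share (42.7%) was 34.9% with all deposited peaks, 34.7% under the stricter rule and 26.9% within 50 bp of the summit. All regions had 26.5% with all deposited peaks and 19.9% within 50 bp. These shares are not matched for position, since start sites held 12.0% of the 558 and 36.7% of all regions. In distal regions under the main setting AP-1 was 44.4%, against 42.2% of all distal and 49.0% of retained regions. The CAGCTG share (13.4%) was 10.6% with all deposited peaks and 7.71% within 50 bp, against 19.9% and 10.5% of all regions, and stayed below the share of all regions in each. Leaving out 1 library gave 41.2% to 44.5% for AP-1 and 11.8% to 15.6% for CAGCTG.

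The dox fit in GM and the interaction called 0 regions under each alternative run. In DM the replicate block called 537 regions, the paired value, and 156, 199 and 419 when both libraries of number 2, 3 or 4 were left out of it, an alternative chosen after seeing the data. Without DM +dox replicate 3 the unpaired fit called 2, and 0 to 2 over the 6 single omissions. With all 8 DM libraries 1139 regions had a peak in every library, and 0 of them were among the 558. The block changed no other call. The median dox difference in DM and the median interaction changed sign under the settings named beside them. An absent DM peak means that no peak was called there in that list, which is not an absence of accessibility. The part of sequencing depth in absent peaks was not tested.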

Other observations

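The 2 DM libraries not used in the comparisons also held fewer peaks at these regions than at retained ones. DM +dox replicate 1, with 14236 deposited peaks, had a peak at 29.9% of the 558 regions, 75.8% of the retained and 49.6% of the mirror-image regions. DM no dox replicate 1, with 1287 peaks, had one at 0.179%, 12.2% and 2.16%.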
